A study of Mus musculus with 35 samples.

Results

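A set of 10 genes of the fat and cartilage lineages was followed through the arrays: the adipogenic regulators Pparg, Cebpa, Cebpb and Cebpd, the adipocyte products Fabp4 and Lpl, the cartilage regulators Sox9, Sox5 and Sox6, and the cartilage matrix gene Comp. They were taken by gene name, 10 of the 27962 names on the array, and every probe that carries one of these names was kept, which gave 23 probes. Of these, 17 passed the filter on dim probes. Each gene is described by its brightest probe over all 35 arrays. This main probe was tested for 9 of the 10 genes, the exception being Sox5.

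Gene expression was measured with 1-colour Agilent arrays in 3 source cell samples, 30 induced pluripotent stem (iPS) clones and 2 embryonic stem (ES) cell lines. PαS cells are bone marrow mesenchymal stem cells sorted as CD45- Ter119- PDGFRα+ Sca-1+. OP cells are osteo-progenitors sorted from the same marrow as CD45- Ter119- PDGFRα- Sca-1-, and TTFs are tail tip fibroblasts. All 3 came from mice 6 weeks old that carried a Nanog-driven GFP and puromycin reporter, and each was measured on 1 array. From each source, 5 clones were made with retroviral Oct3/4, Sox2 and Klf4 (3F) and 5 with these and c-Myc (4F), giving 6 groups of 5 clones. The clones were picked for reporter fluorescence without the retroviral DsRed signal and were kept on SNL feeder cells, a mouse fibroblast line. The 2 ES arrays were EB-3 and RF8. The labels do not say which animals or cultures the clones of a group came from, so a p-value does not measure the spread between animals. In the tests between groups, the spread is pooled within all 8 groups of the fit, source and ES arrays included.

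Levels are log2 intensities relative to the 75th percentile of the same array, so a level of 0 equals that percentile. Levels of different probes are not on a common scale and were compared only within a probe. From 56.6% to 65.7% of probes were well above background on the clone arrays, 63.0% to 64.3% on the source arrays and 64.3% to 71.2% on the ES arrays. The 3 source arrays and EB-3 shared 1 slide and 1 scan session, the 30 clones lay on 8 other slides of another session, and RF8 was scanned alone in a session of its own. Source cells against clones and clones against ES cells therefore cannot be told apart from the session, whereas the source cells and EB-3 can be set side by side within 1 slide.

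The sort and the tissue were first set against the arrays. Pdgfra, which encodes PDGFRα, had a level of 0.98 on the PαS array, 1.58 on the OP array and 0.59 on the TTF array, so the transcript was not lower in the cells sorted as negative for the protein. The methods describe an expansion of the sorted cells in culture before transduction, and the sources used here do not say whether the RNA of the source arrays was taken before or after it. Ly6a, which encodes Sca-1, was at 5.58, 3.54 and 3.53. The TTF array carried macrophage transcripts: all 10 macrophage markers looked at were well above background there, and each was at least 2-fold above both other source arrays. Their summed linear level was 1006 on the TTF array, 18.9 on the OP array, 7.68 on the PαS array and 2.12 to 11.7 in the clones. Tyrobp was at 7.84 and Emr1 at 6.74 on the TTF array, and both were not well above background in PαS and OP cells.

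PPARγ is the nuclear receptor that drives fat cell differentiation, and the C/EBP factors act with it: C/EBPβ and C/EBPδ come early and help to switch on Pparg and Cebpa, which then maintain each other and activate fat cell genes. Fabp4 carries fatty acids inside the cell, and lipoprotein lipase (Lpl) releases them from circulating triglyceride. In cartilage, SOX9 is the master regulator and works with SOX5 and SOX6 on the genes of the cartilage matrix, among them Comp, a pentameric glycoprotein of cartilage, tendon and ligament. Several of these genes are not restricted to fat or cartilage. Macrophages also make Fabp4, Lpl and Cebpa, and fibroblasts and tenocytes can make Comp.

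The probes that read coding sequence show which parts of these genes were measured. They are given as 60 bases 5′ to 3′, with the positions of the array annotation on mouse build mm7. In Cebpa and Cebpb the capitals mark leucine codons spaced 7 codons apart, the repeat of the leucine zipper through which these factors pair: 2 such codons lie in the Cebpa probe at chr7:32010056-32010115 and 3 in the Cebpb probe at chr2:167482463-167482522, both on the plus strand.
Cebpa: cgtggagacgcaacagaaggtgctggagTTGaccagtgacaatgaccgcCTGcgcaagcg
Cebpb: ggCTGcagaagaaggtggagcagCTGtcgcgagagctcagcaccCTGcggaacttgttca
Fabp4: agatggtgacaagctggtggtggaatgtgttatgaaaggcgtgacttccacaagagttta
Lpl: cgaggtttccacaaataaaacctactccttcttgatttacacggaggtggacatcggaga
Sox9: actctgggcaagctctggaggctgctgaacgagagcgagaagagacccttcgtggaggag
Comp: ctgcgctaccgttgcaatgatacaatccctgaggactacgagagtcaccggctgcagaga
The Fabp4 probe lies on the minus strand at chr3:10212718-10213447, and the Lpl probe on the plus strand at chr8:67355909-67355968. The Sox9 probe, at chr11:112892041-112892893 on the plus strand, reads part of the HMG box, the domain that binds DNA. The Comp probe, at chr8:68837003-68837136 on the plus strand, is the main and only probe of that gene. The Fabp4, Sox9 and Comp probes each span more genome than their own 60 bases (730, 853 and 134 bases), so they cross introns and read spliced RNA. Apart from Comp these are other probes of their genes, and over the arrays where both were well above background they followed the main probe with Pearson's r of 0.949 for Cebpa (30 arrays), 0.976 for Cebpb (35 arrays), 0.994 for Fabp4 (34 arrays), 0.984 for Lpl (35 arrays) and 0.882 for Sox9 (26 arrays). These correlations describe arrays that share cell types and slides.

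The 3 source cells differed most in the cartilage genes and in Lpl. OP cells had the highest Sox9, Sox6 and Comp levels, TTFs had the lowest of all 3 genes, and the PαS array lay between them. Cebpa, Fabp4 and Lpl ran the other way, with TTFs highest. Each source is 1 array, so these are differences between arrays, with no replicate check and no test.

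Among the cartilage genes, Sox9 had levels of 0.52 on the PαS array, 3.31 on the OP array and -3.50 on the TTF array. The OP array was thus 112-fold above TTFs and 6.91-fold above PαS cells, and PαS cells were 16.2-fold above TTFs. The other Sox9 probes kept this order: the second gave 129-fold between OP cells and TTFs, and the probe in the HMG box, which was not well above background in TTFs, gave at least 17.9-fold. Sox6, a partner of SOX9, was at -1.49, 1.43 and -5.87, which put OP cells 158-fold above TTFs and 7.59-fold above PαS cells. Comp was at 7.46, 8.53 and 3.28, so it was 18.2-fold higher in PαS cells and 38.1-fold higher in OP cells than in TTFs. The other SOX partner, Sox5, could not be followed: its main probe was well above background on 2 of 35 arrays (PαS cells and clone 4F-OP-iPS #3), its second probe on the OP array alone at -6.03, and its dimmest probe on none.

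The adipogenic factors differed less. Pparg was at 1.44 on the PαS array, 0.92 on the OP array and 0.39 on the TTF array, a 2.07-fold range. Cebpb was at 4.49, 3.94 and 4.54, with no pair as far as 2-fold apart. Cebpd was at 5.29, 6.57 and 5.68, which was 2.42-fold higher in OP than in PαS cells. Cebpa stood apart from them, at 0.18 in PαS cells, -0.56 in OP cells and 2.43 in TTFs, so that TTFs were 4.74-fold above PαS and 7.95-fold above OP cells. Of the adipocyte products, Fabp4 was at 2.73, 2.14 and 4.92, and TTFs were 4.59-fold above PαS and 6.87-fold above OP cells. Lpl was at 1.42, 2.21 and 5.57, and TTFs were 17.7-fold above PαS and 10.3-fold above OP cells. The second Lpl probe, printed above, gave 28.2-fold and 15.6-fold. These 3 genes were highest on the array with the macrophage transcripts, on which Csf1r was at 5.74, Ptprc, which encodes CD45, at 4.14 and Cd36, a fatty acid receptor of fat cells and macrophages, at 2.37. Cd36 was not well above background in PαS or OP cells. The part of macrophage RNA in the Fabp4, Lpl and Cebpa levels was not tested.

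**Figure D1:**
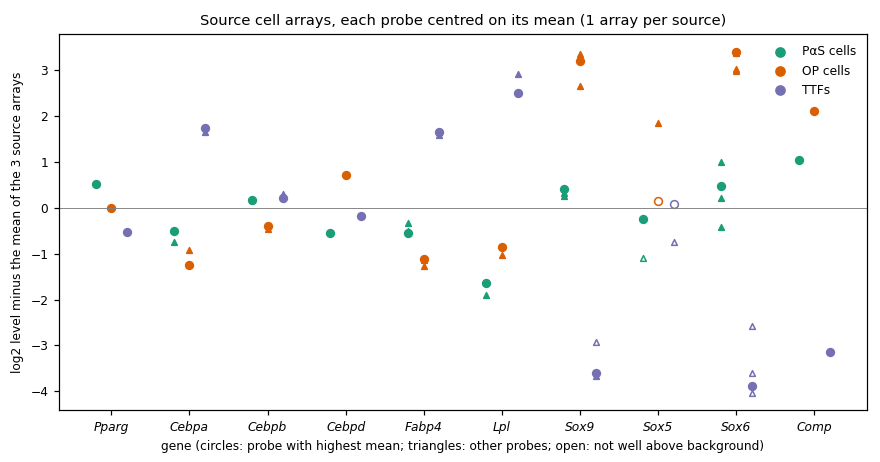
Levels of the probes of the 10 genes on the PαS, OP and TTF arrays (log2), each probe centred on its mean over the 3 source arrays. Circles are main probes and triangles other probes, and open symbols were not well above background. Probes well above background on none of the 3 arrays are left out. Sox9, Sox6 and Comp are highest in OP cells and lowest in TTFs, and Cebpa, Fabp4 and Lpl are highest in TTFs, with 1 array per source and no error bar.

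Counted over the 10 genes, 4 were at least 2-fold apart between PαS and OP cells (Sox9, Sox6, Comp and Cebpd, all higher in OP cells), against 31.0% of all probes above background on either array. Between PαS cells and TTFs it was 7 genes, of which Pparg, Sox9, Sox6 and Comp were higher in PαS cells and Cebpa, Fabp4 and Lpl in TTFs, against 42.1% of all probes. Between OP cells and TTFs it was 6 genes, 3 in each direction, against 40.5% of all probes. The share between PαS and OP cells is thus close to that of all probes, and the other 2 shares lie above it.

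Genes with related roles were read from lists. Of 21 cartilage matrix genes, 19 were highest on the OP array, where 35.7% of all probes above background on a source array were highest. Col2a1, the main collagen of cartilage, was at 8.47 on the OP array, 3.49 on the PαS array and -2.25 on the TTF array. Agc1, the array's name for aggrecan, was at 4.57, -2.65 and -5.55 in the same order. Lect1, which encodes chondromodulin, was at 7.0 on the OP array and not well above background on the other source arrays, and so was Col9a1, at 2.54. The summed linear level of the 21 genes was 1027 in OP cells, 168 in PαS cells, 93.4 in TTFs and 4.35 to 14.4 in the clones. Of 14 cartilage regulators, 10 were highest in OP cells. Bone genes were high on the same array: 7 of 8 bone markers were highest in OP cells, with Ibsp (bone sialoprotein) at 3.65 and Bglap1 (osteocalcin) at 4.25, while Ibsp was not well above background in PαS cells and TTFs. All 8 were well above background in OP cells, 7 in PαS cells and 4 in TTFs. Their summed level was 419, 306 and 325, and their mean log2 level 2.53, -1.40 and -3.06. Fewer cells of a type and less RNA per cell cannot be told apart in these bulk samples.

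The fat genes showed no such array. Of 19 fat cell genes above background on a source array, 5 were highest in PαS cells, 8 in OP cells and 6 in TTFs. Adipoq, which encodes adiponectin, was at -2.23 in OP cells and -5.06 in TTFs and not well above background in PαS cells, and Lep, which encodes leptin, was well above background on none of the 35 arrays. Of 15 other fat regulators, 8 were highest in PαS cells, 7 in OP cells and 0 in TTFs, against 28.6%, 35.7% and 35.7% of all probes. Among them Ebf1, an early B-cell factor that acts upstream of Pparg, was at -0.15, -1.79 and -0.23, and its relative Ebf2 at 0.18, -3.48 and -1.90.

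**Figure D2:**
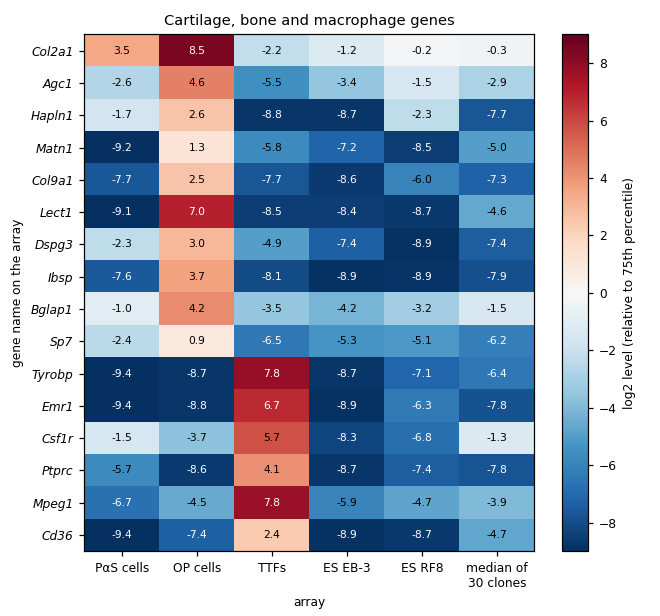
Levels (log2) of cartilage, bone, macrophage and fat genes on the PαS, OP, TTF, EB-3 and RF8 arrays, with the median of the 30 clones in the last column. Col2a1, Lect1 and Ibsp stand out on the OP array, and Tyrobp, Emr1, Csf1r and Cd36 on the TTF array.

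Set against EB-3 on the same slide, all measured genes but 1 were at least 4-fold higher in each source. Pparg was higher by 5.18 in PαS cells, 4.66 in OP cells and 4.13 in TTFs on the log2 scale, Cebpb by 3.93, 3.38 and 3.99, and Cebpd by 3.74, 5.02 and 4.13. Comp was higher by 9.65, 10.71 and 5.46. Fabp4 and Sox9 were not well above background in EB-3, so only bounds can be given: Fabp4 was at least 640-fold higher in PαS cells, 427-fold in OP cells and 2934-fold in TTFs, and Sox9 at least 139-fold, 958-fold and 8.56-fold. The exception was Sox6 in TTFs, which differed from EB-3 by 0.13, against 4.51 in PαS and 7.43 in OP cells. Lpl was higher by 2.15, 2.94 and 6.30, and Cebpa by 4.53, 3.79 and 6.78.

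Reprogramming was then read by comparing the 3 source arrays as 1 group with the 30 clones. Of the 9 tested genes, 6 were called higher in the source cells (limma, adjusted p under 0.05 and at least 2-fold), and none lower. Of all 28308 probes tested, 39.1% were called in either direction and 15.4% were called higher in the source cells. The 6 were Comp, Fabp4, Cebpa, Lpl, Cebpd and Cebpb, and the median difference over the 9 genes was 2.40, against -0.14 over all probes. The 3 sources were treated as replicates here, so the spread between cell types is part of the error.

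Comp had levels of 7.46, 8.53 and 3.28 in the source cells, and from -5.47 to -1.5 with a median of -3.31 in the clones, where 29 of 30 arrays were well above background. No clone came near a source array, and the difference was 9.74 ± 0.62 (SE), or 858-fold (limma adjusted p = 1.75e-13). Fabp4 ranged from -2.60 to 1.52 in the clones, with a median of -0.77, below all 3 source arrays, and differed by 3.92 ± 0.69, or 15.1-fold (limma adjusted p = 1.88e-05). Cebpa ranged from -4.37 to -1.05 in the clones, again below all source arrays, and differed by 3.22 ± 0.47, or 9.34-fold (limma adjusted p = 1.16e-06). Cebpd, from 2.45 to 4.67 in the clones, differed by 2.40 ± 0.31 (adjusted p = 1.56e-07), and Cebpb, from 1.86 to 3.71, by 1.39 ± 0.25 (adjusted p = 2.86e-05). For both, the groups did not overlap. Lpl differed by 2.53 ± 0.50, or 5.78-fold (adjusted p = 8.49e-05), but its groups overlapped, since the PαS array at 1.42 lay under the highest clone at 1.70. Without the TTF array, which carried the macrophage transcripts, the differences were 1.28 for Lpl (adjusted p = 0.0161), 3.09 for Fabp4, 2.35 for Cebpa and 11.32 for Comp, and all 4 were still called.

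The other 3 tested genes were not called. Pparg ranged from -2.91 to 2.64 in the clones and enclosed all source arrays, with a difference of 1.29 ± 0.66 (limma adjusted p = 0.0948). That it was not called rested on 1 clone: without 4F-OP-iPS #2 the difference was 1.43 and was called (adjusted p = 0.0152). This clone was among 4 low in Nanog (4F-OP-iPS #1 to #3 and 4F-TTF-iPS #1). Without these 4 the difference was 1.47 and was called (limma adjusted p = 0.0192). Sox6 ranged from -7.09 to -1.88 in the clones, below the PαS and OP arrays but not below TTFs, with a difference of 2.16 ± 0.97 (adjusted p = 0.0576). Without the TTF array it was 4.10 and was called (adjusted p = 0.00108), and leaving out 3F-PαS-iPS #2, 4F-OP-iPS #2 or RF8 also brought it under the threshold, with adjusted p from 0.0446 to 0.0495. It was also called under normexp background correction (1.38, adjusted p = 0.0226), under quantile normalization (2.39, adjusted p = 0.0258) and with only these groups fitted (adjusted p = 0.0483). Sox9 ranged from -1.04 to 1.22. The PαS array, at 0.52, lay inside this range, the OP array was above every clone and the TTF array below every clone, and the mean difference was 0.11 ± 0.89 (adjusted p = 0.927).

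**Figure D3:**
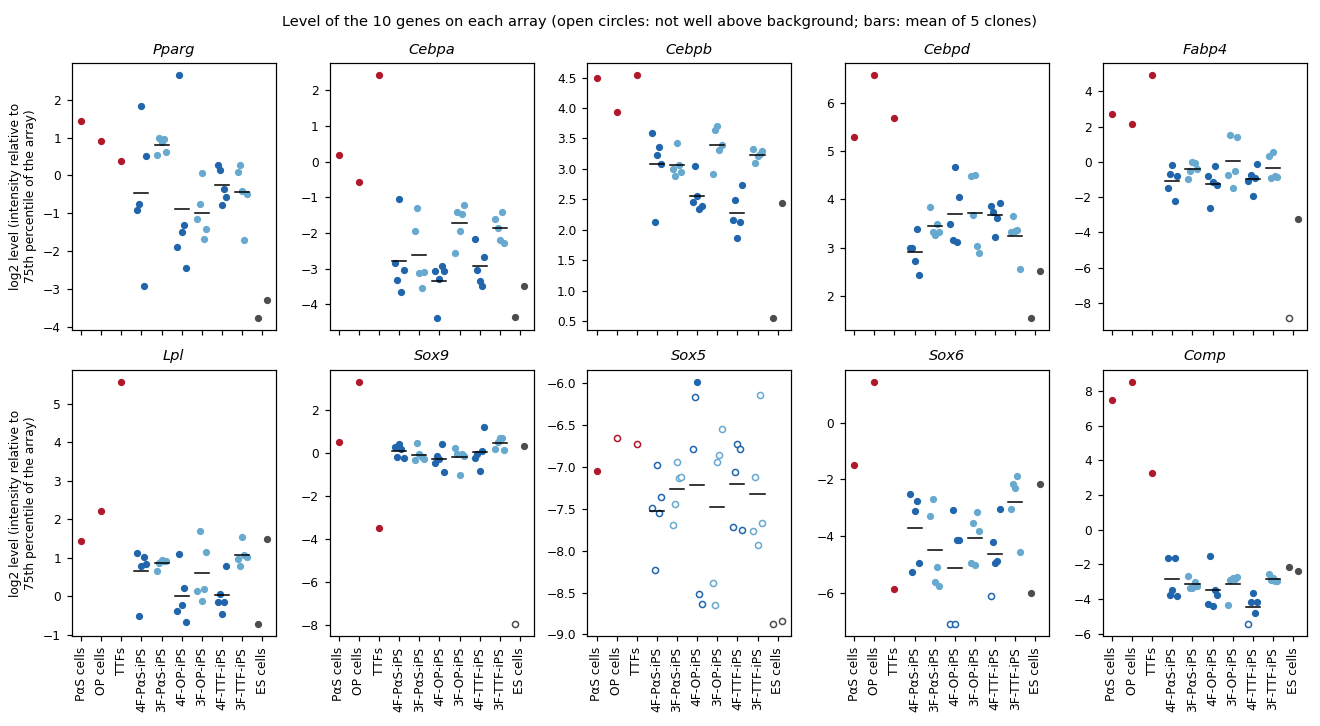
Level of each of the 10 genes (log2, relative to the array's 75th percentile) on every array, by group, with 1 point per array. Comp separates the source cells from all clones, Pparg spreads widely among 4F-PαS-iPS and 4F-OP-iPS clones, and Sox9 on the OP and TTF arrays lies above and below the clones.

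Genes of the related lists were called in both directions between source cells and clones, where 23.7% of all probes were called lower in the source cells. Of 18 tested cartilage matrix genes, 10 were higher in the source cells and 2 lower. Among them were Thbs4 (9.99 ± 0.91), which encodes a matrix protein of tendon and cartilage and was well above background in 23 of 30 clones, Fmod (8.28 ± 1.09, 27 of 30 clones), which encodes the collagen-binding fibromodulin, and Thbs1 (4.87 ± 0.82, 30 of 30 clones). Cilp, which encodes a protein of the cartilage matrix, and Dspg3 were called too, but only 5 and 3 of 30 clones were well above background, so their fitted 9.92 and 5.70 rest mostly on readings under background. Dspg3 passed the filter on dim probes only through the source arrays, and without these genes 8 of the 10 are left. Matn3 and Col9a2 were lower, at -2.56 and -1.88. Of 12 tested cartilage regulators, 5 were higher, among them Trps1 at 2.82 ± 0.55 and Bmpr1b, which was well above background in 2 of 3 source arrays and 1 of 30 clones, and 3 were lower: Ihh, the hedgehog ligand of growth plate cartilage, at -6.16 ± 0.85 with 1 of 3 source arrays well above background, the parathyroid hormone receptor gene Pthr1 at -2.96 and its ligand gene Pthlh at -1.95 (1 of 3 source arrays and 19 of 30 clones well above background). Of 14 tested fat regulators, 4 were higher (Nr1h3 at 4.14, Ebf1 at 3.67, Ebf2 at 2.06 and Rxra at 1.95) and 5 lower, among them Klf5 at -5.57, Dlk1, an inhibitor of fat cell differentiation, at -4.15, and Ppargc1a at -4.06. Of 18 tested fat cell genes, only Fabp5 was higher, at 2.36 with 5 of 30 clones well above background, and 4 were lower, a share near that of all probes: Cidec (-4.49), Cidea (-4.20), Slc2a4 (-4.14) and Pck1, which was under background on all 3 source arrays and at least 2.39-fold higher in the mean of the clones, of which 14 of 30 were well above background. The higher Fabp4 and Lpl in source cells were thus not shared by this list, whose median difference was 0.18 against -0.14 over all probes.

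Fibroblast markers moved with these genes. Of 16, 13 were called higher in source cells than in clones and 0 lower, with a median difference of 2.64. Their summed level was 296 to 1236 over the source arrays and 49.8 to 305 in the clones, and all 16 were well above background on the source arrays. The ES cell marker list moved the opposite way, with 8 of 8 lower in the source cells, including Nanog and Pou5f1, which were not well above background there. Of 8 endothelial markers 7 were also called lower in the source cells and 0 higher, with a summed level of 0.0364 to 0.592 over the source arrays and 1.97 to 13.3 in the clones. The lowest sum is that of the OP array, where 0 of 8 were well above background, so it holds only readings under background. Of 5 tested macrophage markers 2 were higher and 0 lower. The part of these cell types in the differences was not tested.

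Clones were next compared with the ES arrays, which asks how far each gene was from the ES level after reprogramming. Of the 9 genes, 6 were called higher in the clones and none lower, against 34.3% of all probes called in either direction and 16.3% called higher and 17.9% lower in the clones. Without EB-3, 2 of the 6 calls were kept.

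Pparg was at -3.75 in EB-3 and -3.27 in RF8, and all 30 clones lay above both, with a difference of 3.14 ± 0.80, or 8.80-fold (limma adjusted p = 0.00192). Fabp4 was at -3.26 in RF8 and not well above background in EB-3, where its value was -8.83. All 30 clones lay above RF8, and the difference was 5.39 ± 0.83 (adjusted p = 6.42e-06). With EB-3 left out these 2 calls were kept, Pparg at 2.90 (adjusted p = 0.0486) and Fabp4 at 2.61 (adjusted p = 0.0266), and the other 4 were lost. The fitted Fabp4 value averages in an EB-3 reading under background. With EB-3 set to the lowest signal well above background on its array the difference was 4.28, and against EB-3 alone the clones were at least 61.5-fold higher.

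Those 4 were Cebpa, Cebpb, Cebpd and Sox9. Cebpb was at 0.55 in EB-3 and 2.44 in RF8, Cebpd at 1.55 and 2.52, and Cebpa at -4.35 and -3.48. Their differences of 1.43 ± 0.30 (limma adjusted p = 0.000316), 1.41 ± 0.37 (adjusted p = 0.00249) and 1.38 ± 0.56 (adjusted p = 0.0442) became 0.49, 0.93 and 0.94 without EB-3, with adjusted p of 0.289, 0.165 and 0.38, and without RF8 Cebpb was 2.38. The Cebpa call was also lost with the slide as a random block (1.37, adjusted p = 0.0708), without RF8 (1.81, adjusted p = 0.0684) and, with adjusted p from 0.0503 to 0.0508, without 3F-OP-iPS #2, 3F-OP-iPS #5, 3F-TTF-iPS #1 or 3F-TTF-iPS #4. Sox9 was not well above background in EB-3 and at 0.31 in RF8, inside the range of the clones. Its difference of 3.83 ± 1.07 (adjusted p = 0.00431) turned to -0.31 without EB-3 (adjusted p = 0.85). With EB-3 at the same floor it was 3.15, and against EB-3 alone the clones were at least 96.9-fold higher. The genes not called were Lpl, at -0.73 and 1.5 in the ES arrays (0.15 ± 0.60, adjusted p = 0.851), Sox6, at -6.00 and -2.15 (-0.06 ± 1.17, adjusted p = 0.972), and Comp. Comp was at -2.19 in EB-3 and -2.40 in RF8, and 27 of 30 clones lay below both, with a difference of -1.03 ± 0.75 (adjusted p = 0.263).

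Fibroblast markers also differed between the ES arrays and between clones and ES cells. Of 16, 11 were called higher in the clones and 0 lower, and their summed level was 10.8 in EB-3, 50.1 in RF8 and 49.8 to 305 in the clones. Macrophage markers (3 of 5 tested) and endothelial markers (3 of 8) were also called higher in the clones and none lower. Of 8 ES cell markers, 2 were called lower in the clones, Zfp42 at -5.34 and Tdgf1 at -3.35, and 0 higher. The summed level of the 10 macrophage markers was 1.08 in EB-3, 0.788 in RF8 and 2.12 to 11.7 in the clones. That of the 8 endothelial markers was 0.999 in EB-3, 3.62 in RF8 and 1.97 to 13.3 in the clones. Csf1r was well above background in 30 of 30 clones, and Ptprc and Emr1 in 0. The part of these cell types in the Fabp4, Sox9 and Cebp differences was not tested. Of the related lists, 5 of 14 fat regulators were higher in the clones, among them Ppargc1a at 4.64 (1 of 2 ES arrays well above background) and Dlk1 at 3.71, and 2 were lower (Ebf1 and Zfp423). Of the 12 cartilage regulators, 4 were higher, among them Pthr1 at 6.12 and Ihh, which was under background in both ES arrays and at least 31.2-fold higher in the clones, and 1, Bmpr1b, was lower, with 1 of 30 clones well above background, so that it was tested only because the ES arrays showed it. The fat cell genes gave 3 higher (Cd36, Cidec, Scd1) and 2 lower (Fasn, Acaca) of 18, and the cartilage matrix genes 4 higher and 1 lower (Thbs4) of 18. One of the 4, Cilp, was under background in both ES arrays and in 25 of 30 clones, so no difference can be stated for it.

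The question whether clones carry over the levels of their source was addressed by comparing clones of different origin. Comp, Sox9, Sox6 and Lpl, the genes that differed most between the source arrays, differed by less than 1 on the log2 scale between clones of any 2 origins. No gene of the 10 was called between PαS-iPS and OP-iPS clones (0.929% of all probes called), between PαS-iPS and TTF-iPS clones (0.297%), or between OP-iPS and TTF-iPS clones (0.0141%). By the same limma fit, 2, 0 and 0 of the 9 genes had an unadjusted p under 0.05. The spread in this fit is estimated over all 8 groups, source and ES arrays included, and with only the clone groups compared fitted, 0 genes were called in each of the 3.

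Sox9 had means of 0.01 ± 0.30 (SD, n = 10) in PαS-iPS, -0.24 ± 0.46 in OP-iPS and 0.24 ± 0.58 in TTF-iPS clones, with OP-iPS minus TTF-iPS at -0.48 ± 0.66 (SE, limma adjusted p = 0.911), where the source arrays differed by 6.81. Comp had means of -3.01 ± 0.80, -3.30 ± 0.92 and -3.66 ± 0.97 (SD, n = 10 each), and OP-iPS minus TTF-iPS was 0.35 ± 0.46 (SE, limma adjusted p = 0.902). Lpl had means of 0.75 ± 0.46, 0.31 ± 0.76 and 0.55 ± 0.67, and Fabp4 means of -0.73 ± 0.69, -0.59 ± 1.27 and -0.64 ± 0.74. The groups overlapped for each of these genes.

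The 2 genes with an unadjusted p under 0.05 were Pparg and Cebpd, both between PαS-iPS and OP-iPS clones. The 10 PαS-iPS clones had Pparg levels from -2.91 to 1.82 with a median of 0.57, and the OP-iPS clones from -2.43 to 2.64 with a median of -1.36. The groups overlapped, and the difference was 1.11 ± 0.49 (limma adjusted p = 0.22). One clone, 4F-OP-iPS #2, which was low in Nanog, was at 2.64 while the other 9 OP-iPS clones did not pass 0.06. Without this clone the difference was 1.55 and was called (adjusted p = 0.0125). Within the 3 slides that held clones of both origins, PαS-iPS minus OP-iPS was 0.78, 0.98 and 1.74, and with the slide as a fixed block it was 1.30 (adjusted p = 0.223). For Cebpd, PαS-iPS minus OP-iPS was -0.53 ± 0.23 (limma adjusted p = 0.205), and -0.75, -0.96 and -0.67 within those slides. Of the listed genes, the only call between origins was Ihh, which was 3.15 ± 0.63 higher in PαS-iPS than in OP-iPS clones (limma adjusted p = 0.0146).

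Within a source, 3F- and 4F-clones were compared to see what went with the use of c-Myc. Among PαS-iPS clones no gene was called (0.0106% of all probes), and 0 of 9 had an unadjusted p under 0.05 by limma. Among OP-iPS clones 1 of the 9 was called, Cebpa, which was higher in 3F-clones, against 3.05% of all probes in either direction and 2.63% higher in 3F-clones. Among TTF-iPS clones none was called (4.56% of all probes), although 3 genes had an unadjusted p under 0.05.

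Cebpa was at -2.55, -1.42, -1.93, -1.47 and -1.20 in the 3F-OP-iPS clones #1 to #5, and at -3.06, -4.37, -3.29, -2.92 and -3.08 in the 4F-OP-iPS clones. Every 3F-clone lay above every 4F-clone, and the difference was 1.63 ± 0.49, or 3.09-fold (limma adjusted p = 0.0476). The probe over the leucine zipper, printed above, gave 1.87 (adjusted p = 0.0124). The 3F-OP-iPS and 4F-OP-iPS clones share no slide, so an effect of c-Myc cannot be told apart from one of the slide, and with the slide as a random block the call was lost (1.76, adjusted p = 0.124). The call lay close to the threshold and was lost in 21 of the 35 fits that left out 1 array, among them 3F-OP-iPS #2 to #5 and 4F-OP-iPS #1 to #3 (adjusted p up to 0.123), and the difference kept its direction in all alternatives run, from 1.03 to 1.87. The 4F-OP-iPS clones #1 to #3 were low in Nanog. Without these and 4F-TTF-iPS #1 the difference was 1.28 (adjusted p = 0.65). ES cell markers moved with it: 2 of 8 were called higher in 3F-OP-iPS clones, and their summed level was 27.5 to 549 in 4F-OP-iPS and 221 to 502 in 3F-OP-iPS clones. Of 16 fibroblast markers 0 were called, with a median difference of 1.01 against 0.02 over all probes. Their summed level was 49.8 to 125 in 4F-OP-iPS and 51.7 to 305 in 3F-OP-iPS clones. The part of either list in the Cebpa difference was not tested.

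In TTF-iPS clones Cebpb was at 3.33, 3.09, 3.21, 3.25 and 3.29 in 3F-clones #1 to #5 and at 2.15, 2.49, 1.86, 2.13 and 2.73 in 4F-clones. The groups did not overlap, but the difference of 0.96 ± 0.26 (limma adjusted p = 0.0249) was just under 2-fold. It was called without 4F-TTF-iPS #2 (1.01, adjusted p = 0.0411) or #5 (1.08, adjusted p = 0.0186). Comp was at -2.59, -2.94, -2.78, -2.99 and -2.95 in 3F-clones and at -5.47, -4.18, -3.68, -4.79 and -4.18 in 4F-clones, of which #1 was not well above background. These groups did not overlap either, with a difference of 1.61 ± 0.65 (adjusted p = 0.127). With the clone number as a block Comp passed (limma adjusted p = 0.0408), but the numbers do not pair the clones. With the 2 groups fitted alone Comp passed too (limma adjusted p = 0.00344). So did Lpl (1.06, adjusted p = 0.00825), Cebpa (1.07, adjusted p = 0.0142) and Sox6 (1.84, adjusted p = 0.0486) in that fit. Leaving out the TTF source array, which is in neither group, gave Comp an adjusted p of 0.0321. Of 8 ES cell markers 0 were called between these 3F- and 4F-clones. Their summed level was 28.4 to 424 in 4F-TTF-iPS clones, lowest in #1, and 330 to 430 in 3F-TTF-iPS clones. The groups share no slide and are linked only through slides that hold other groups, and with the slide as a fixed block Cebpb was 0.51 and Comp 0.79 higher in 3F-clones, both with an adjusted p of 1. Among OP-iPS clones Cebpb was higher in 3F-clones by 0.84 ± 0.26 (adjusted p = 0.0587), with 5 of 5 3F-clones above the mean of the 4F-clones. The second Cebpb probe, printed above, gave 1.02 without overlap of the groups and was called (limma adjusted p = 0.0460).

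The difference between 3F and 4F was itself compared between sources. None of the 9 tested genes was called in any of the 3 interaction contrasts of the limma fit. These set PαS against OP, PαS against TTF and OP against TTF, and 0.17%, 0.325% and 0% of all probes were called. In the same limma contrasts 2, 3 and 0 of the 9 genes had an unadjusted p under 0.05. For Cebpa the 3F-4F difference in PαS-iPS minus that in OP-iPS clones was -1.45 ± 0.69 (adjusted p = 0.296), and for Comp that in PαS-iPS minus that in TTF-iPS clones was -1.88 ± 0.91 (adjusted p = 0.306). A call in OP-iPS clones and none in PαS-iPS clones is therefore not a shown difference between them. Of the listed genes, Plin (2.31), Cidec (1.68) and Matn4 (2.98) were higher in 3F-OP-iPS than in 4F-OP-iPS clones, with Plin well above background in 1 and Matn4 in 2 of the 5 4F-clones. Pck1 was under background in all 4F-OP-iPS clones and at least 4.01-fold higher in the mean of the 3F-OP-iPS clones, of which 3 of 5 were well above background. In 3F-TTF-iPS clones Matn4 was higher by 2.46 (2 of 5 4F-clones well above background). Matn1 and Pck1 were under background in all 4F-TTF-iPS clones and at least 4.49-fold and 1.84-fold higher in the mean of the 3F-TTF-iPS clones, of which 5 and 3 of 5 were well above background.

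**Figure D4:**
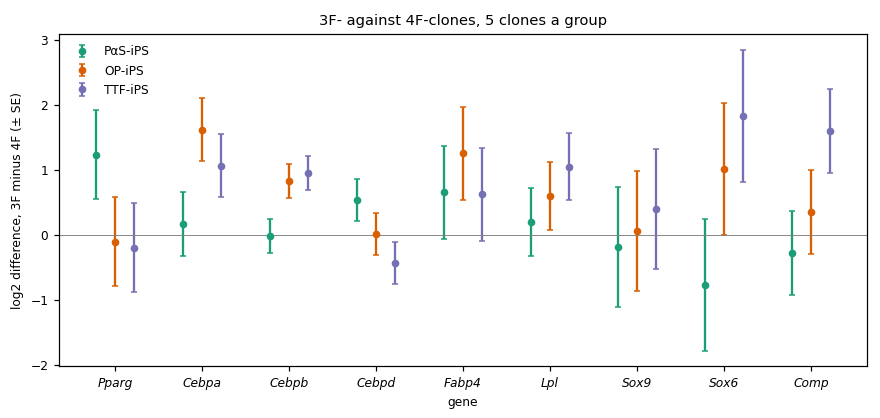
Difference between 3F- and 4F-clones (log2, 3F minus 4F) for the 9 tested genes, by source, as the limma estimate with its standard error. Each difference is between 5 and 5 clones, and its standard error uses the spread over all 8 groups of the fit, source and ES arrays included. Cebpa in OP-iPS clones, at 1.63, is the only call, and all 9 PαS-iPS differences except that of Pparg are smaller than 1.

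Clones of 1 group spread unequally. The 5 3F-PαS-iPS clones had Pparg levels of 0.54, 0.99, 0.88, 0.96 and 0.61, an SD of 0.21, whereas the 4F-PαS-iPS clones had -0.90, -0.76, 1.82, -2.91 and 0.50, an SD of 1.76. In OP-iPS clones the Pparg SD was 0.68 for 3F and 2.02 for 4F, the latter with #2 at 2.64. In TTF-iPS clones the order was the other way, at 0.77 for 3F and 0.45 for 4F. Over all 30 clones the range from lowest to highest was 5.55 for Pparg, 4.13 for Fabp4, 3.97 for Comp, whose lowest clone was not well above background, and 3.32 for Cebpa. It was 2.36 for Lpl, 2.26 for Sox9, 2.23 for Cebpd and 1.84 for Cebpb. For Sox6 it was 5.21, but 3 clones were not well above background there.

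Some of the genes varied together over the 30 clones. Of 45 relations computed, 36 between the 9 genes and 9 with the mean of the 16 fibroblast markers, 14 had an adjusted permutation p under 0.05. The permutations take the 30 clones as exchangeable, although they lie in 6 groups on 8 slides, and within slides r for these 14 was between 0.109 and 0.705. Within the 6 groups r for the 14 was between 0.007 and 0.695. The lowest was that of Cebpa and Cebpb, which had r = 0.443 over all clones. Cebpb and Lpl had Pearson's r = 0.752 and Spearman's rho = 0.725 (both permutation p = 1e-05, the smallest 100000 permutations can give, adjusted p = 0.000225). With the 2 most extreme clones in Cebpb left out r was 0.689, within slides 0.506, and within PαS-iPS, OP-iPS and TTF-iPS clones 0.903, 0.614 and 0.944. Cebpb and Comp had r = 0.700 and rho = 0.728 (adjusted permutation p = 0.0003 and 0.000225), but within slides r was 0.243. Sox9 and Sox6 had r = 0.592 and rho = 0.723 (adjusted permutation p = 0.00297 and 0.0003), and 0.470 within slides.

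Fabp4 followed the fibroblast markers most closely, with r = 0.740 and rho = 0.658 (permutation p = 1e-05 and 0.00012, adjusted p = 0.000225 and 0.00108). With the 2 clones most extreme in Fabp4 left out r was 0.593, and within slides 0.705. Cebpa and Lpl followed them with r = 0.600 and 0.593 and rho = 0.573 and 0.501 (adjusted permutation p for r = 0.00297 for both), and 0.449 and 0.637 within slides. Over all 30 clones Pparg did not, at r = -0.03 and rho = -0.02 (adjusted permutation p = 0.931 and 0.944). Within PαS-iPS, OP-iPS and TTF-iPS clones its r with the markers was 0.746, -0.218 and -0.281. The clones share feeder cells and slides, and the part of feeder RNA in Fabp4 and Lpl was not tested.

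**Figure D5:**
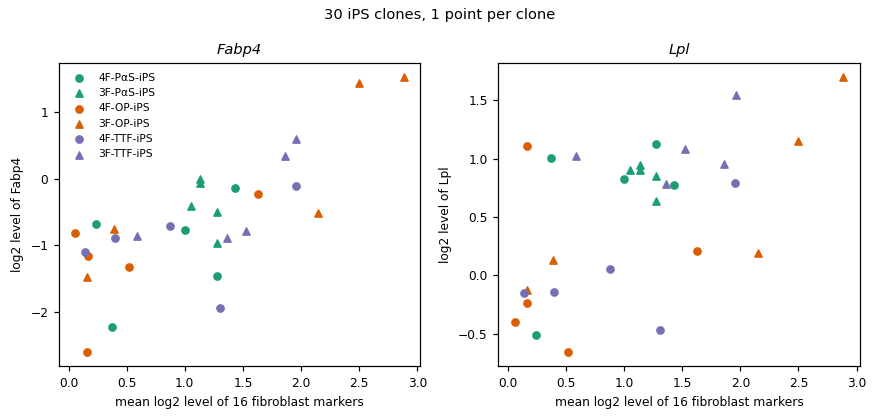
Fabp4 and Lpl levels (log2) of the 30 clones against the mean level of 16 fibroblast markers, with 1 point per clone coloured by group. Fabp4 climbs with the markers (r = 0.740), and Lpl does so with more scatter (r = 0.593).

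The probes most like each gene over the 30 clones, out of 22396 well above background in at least 20 of them, are given as a description. For Pparg they were Ctdspl (r = 0.901), Nrk (0.889) and Bahd1 (0.888). Cebpa was most like Arsg (0.862), Rnf182 (0.836) and Scx (0.816), the last of which encodes the tendon factor scleraxis. Cebpb was most like a transcript listed as BX529199 (0.862), Acot2 (0.852) and 2310061J03Rik (0.850), and the probes most like Cebpd included D10Ucla1 (0.821) and Prkcdbp (0.812). Fabp4 was most like the interleukin 1 receptor gene Il1r1 (0.855), the cytokine gene Il6 (0.835) and Emilin2 (0.816). Lpl was most like Ogn (0.881), which encodes the matrix protein osteoglycin, B230218O03 (0.868) and Masp1 (0.855). Sox9 was most like BI793804 (0.845), Ppargc1a (0.814) and Neto2 (0.781), and Sox6 most like the Wnt target Axin2 (0.909), Cxcr4 (0.906) and Crb2 (0.900). Comp was most like Rps15a (0.847), 1110018G07Rik (0.843) and Rpl23 (0.835), 2 of which encode ribosomal proteins.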

How the data were processed

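The files were scanner output of 1-colour (Cy3) Agilent arrays, 1 per sample, and a table of the series. The deposited intensities were background-subtracted by the authors with Feature Extraction (versions 9.5.3.1, 10.5.1.1 and 10.7.3.1 by session, per the file headers) and not normalized between arrays. The deposited log2 table was made by the authors in GeneSpring GX, with every probe at a median of 0. It was used as an alternative and correlated with the values here at 1.00 or just under on every array.

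Control spots and outlier flags were left out, replicate spots averaged, and log2 intensity minus the array's 75th percentile taken. A probe was tested if all arrays of any of 8 groups (6 clone groups, ES cells, source cells) had it well above background, 28308 of 41174, in 1 fit with limma 3.58.1 (R 4.3.3). A call needs a Benjamini-Hochberg adjusted p under 0.05 and at least a 2-fold difference. Correlations and permutations used Python 3.11.15 with pandas 2.3.3, numpy 2.4.6 and scipy 1.17.1. Simulated data with known changes were used to test the limma script.

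Gene names and positions are those of the array design. The text names the 10 genes by their brightest probe, at most the 5 most changed called genes of each list and direction, and the 3 probes most like each gene, of which 1 is not reported here. Genes beyond this were named after their values were seen: sort, tissue and lineage markers on the source and ES arrays. The members, lists and tests were chosen with earlier results of these data known. The number of arrays limits the precision, and slide and session are partly or wholly confounded with the groups. Shared replicate numbers of clones did not mark pairs, as same-numbered clones of different groups did not deviate together.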

Additional observations from a re-analysis of the deposited data

Results flagged for a closer look

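Within the 6 groups of 5 clones, 60 sets of values (10 genes) were searched for a clone that stood far from the other 4, and 4 were found. Pparg was at 2.64 in 4F-OP-iPS #2, where the others lay between -2.43 and -1.30. In the same clone Cebpa was lowest of its group, at -4.37, against -3.29 to -2.92 in the others. Lpl was at -0.51 in 4F-PαS-iPS #2, below the others at 0.77 to 1.13. Comp was at -4.33 in 3F-OP-iPS #1, below the others at -2.91 to -2.75. Chance alone gives such a value in about 5% of groups, so a few are to be counted on among 60.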

How the results depend on the processing

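The counts of called genes were compared with the main setting in 426 fits or settings, of which 388 stayed within 1.5 times and 38 did not. In source cells against clones no count left that range, with 6 to 8 genes called when 1 array was left out. The normexp, quantile and main scalings put the median of all probes in that comparison at -0.32, 0.04 and -0.14, and the quantile scaling split the calls into 5427 higher and 5267 lower, against 4365 and 6712. Clones against ES cells gave 2 to 6 calls when 1 array was left out, and Sox9, at 3.83 in the main setting, reversed to -0.31 without EB-3 and read 7.96 without RF8, where EB-3, under background, allows only a bound of at least 96.9-fold. Under normexp Sox9 (1.72, adjusted p = 0.0678) and Cebpa (0.67, adjusted p = 0.282) were not called against ES cells. PαS-iPS against OP-iPS clones gave 0 to 1.

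For 3F- against 4F-OP-iPS clones the single call became 0 under normexp, under quantile normalization, with no filter on dim probes, with the slide as a random block, with only the 2 groups fitted and without the 4 clones lowest in Nanog (chosen after seeing the data), 2 with the second probes, and 0 to 1 when 1 array was left out. For 3F- against 4F-TTF-iPS clones the count of 0 became 1 under quantile normalization, with no fold minimum and with the clone number as a replicate block, 4 with only the 2 groups fitted (Cebpa, Lpl, Sox6 and Comp), and 0 to 1 when 1 array was left out. With only the groups fitted, 1 interaction was called (Comp, PαS-iPS against TTF-iPS). The causes of these changes were not tested.

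The clone numbers did not pair the clones: of 75 same-number pairs, 17 had correlated deviations over 0.1, the median correlation was -0.00509, and 6 of 30 clones correlated best with their own number. The replicate block changed no other count. It could not be run for comparisons with source or ES arrays, and the slide as a fixed block only for PαS-iPS against OP-iPS and 3F- against 4F-TTF-iPS clones. Of 3367 values of single genes under alternatives, 22 gained a call, 38 lost one, and 74 changed sign, of which 1 was a called value (Sox9 against ES cells) and the others belonged to differences that were not called. Over all probes, normexp called 7310, 94, 8, 134, 375 and 4926 where the main setting called 11077 (source cells against clones), 263 (PαS-iPS against OP-iPS), 84 (PαS-iPS against TTF-iPS), 862 (3F- against 4F-OP-iPS), 1290 (3F- against 4F-TTF-iPS) and 9696 (clones against ES cells). Quantile normalization moved the split of higher and lower calls from 745 and 117 to 523 and 291 in OP-iPS and from 881 and 409 to 731 and 717 in TTF-iPS clones.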
